A study of Mus musculus with 35 samples.

Results

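The 10 antioxidant enzyme genes described here were Sod1, Sod2, Sod3, Cat, Gpx1, Gpx3, Nqo1, Txnrd1, Gclm and Prdx1, chosen by name as well-known members of the cellular defence against reactive oxygen and compared across all groups of the series. They were represented by 12 probe IDs whose gene name in the scanner output was one of these symbols, and all 10 genes were among the 18671 genes tested. RNA came from the whole suprarenal aorta of male ApoE-/- mice, 1 aorta per array, 35 arrays in all. The mice lack apolipoprotein E, and the saline controls carry the deletion too, so no group was wild type. Saline vehicle or angiotensin II (Ang II) at 1000 ng/kg/min was delivered by subcutaneous osmotic minipumps implanted at 12 to 14 weeks of age, for 7, 14 or 28 days. There were 6, 6 and 5 saline aortas at 7, 14 and 28 days and 4, 5 and 6 Ang II aortas at the same times. The 4 Ang II aortas of day 7 are labelled as non-dissected aneurysms, a further 3 aortas of day 7 as dissected aneurysms, and the labels of the later Ang II aortas name an aneurysm and say nothing on dissection.

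These enzymes act in sequence. Superoxide, the first product of NADPH oxidases and of leaking respiratory chains, is turned into hydrogen peroxide by superoxide dismutases in the cytosol (Sod1), the mitochondrial matrix (Sod2) and the extracellular space (Sod3, made in the artery wall mainly by smooth muscle). Hydrogen peroxide is then removed by catalase (Cat) in peroxisomes, by selenium-dependent glutathione peroxidases inside cells (Gpx1) and in plasma and extracellular fluid (Gpx3), and by peroxiredoxins such as Prdx1. Gclm, the modifier subunit of the enzyme that starts glutathione synthesis, Txnrd1, the cytosolic thioredoxin reductase, and Nqo1, a quinone reductase, supply or spare the reducing power, and all these last genes and Prdx1 are known targets of the transcription factor Nrf2. Ang II is known to activate NADPH oxidases in the vessel wall.

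Each value is the log2 ratio of an aorta (Cy5) to a mouse universal reference RNA (Cy3) on the same array, with no dye swap. It ranks groups for 1 gene and does not rank genes against each other. The main probes of all 10 genes were well above background in the aorta channel on all 35 arrays, and saturated on 0 arrays. In the reference channel the Sod3 probe was well above background on 24 of 35 arrays. Sod1 had 3 probe IDs. The main one (chr16:90115111-90115170 in the mm8 coordinates of the scanner files, beside a RefSeq messenger RNA) is the brightest, a second was above background on 32 arrays, and the third was above background on 1 array and was not tested. The Cat probe lies at chr2:103255342-103255401 and the Sod2 probe at chr17:12858140-12858199 of mm8. An exon or UTR is not assigned to the probes here.

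Spots well above background made up 45.0% to 84.8% of an array in the aorta channel, with a median of 57.1%. The Apoe probe itself was above background on 35 of 35 arrays, with log2 ratios from 0.38 to 2.12, and since its position relative to the deleted part of the gene is not known here it checks nothing about the genotype. Values of the 7 smooth muscle markers were all above background in 6 of the 7 groups, and 95.2% of them in dissected aortas. Of all genes tested, 14.5% were called higher and 12.6% lower with Ang II at 7 days. The shares were 1.12% and 1.28% at 14 days, 0.836% and 0.0643% at 28 days, and 18.9% and 17.6% in dissected aortas. Macrophage markers rose together with Ang II at 7 days (8 of 8, median log2 change 2.05), at 14 days in 1 of 8, at 28 days in 4 of 8, and in dissected aortas in 8 of 8. Markers of neighbouring tissue moved as well, with 2 of 5 brown adipocyte genes and 4 of 6 chromaffin and sympathetic genes lower in Ang II aortas at 7 days and 0 of 7 white adipocyte genes called. Fibroblast markers were higher in 3 of 5 at 7 days, and kidney tubule markers lower in 4 of 6 at 14 days. Hepatocyte markers had a median log2 change of -1.91 at 7 days (0 of 5 called) and of -2.20 in dissected aortas (2 of 5 called lower), where Cat was lowest. Their score ran from -1.63 to 1.88 in saline aortas of day 7, from -1.19 to 0.11 in Ang II aortas and from -1.61 to -1.21 in dissected aortas. Of 2 neutrophil markers tested, 1 was higher in dissected aortas. The fits with tissue scores given with the enzymes used only adipocyte, chromaffin and sympathetic, and kidney tubule scores. The part of smooth muscle, macrophages, fibroblasts, hepatocytes and neutrophils in the results was not tested. In whole aortas, fewer cells of a type and less RNA per cell cannot be told apart. The arrays were scanned on 2 days, which held 3 and 1 of the Ang II aortas of day 7, 3 and 3 of the saline aortas of day 7, and 0 and 3 of the dissected aortas.

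The promoters of the 5 enzymes that fell in non-dissected or dissected aortas at day 7 are shown because these genes share a direction there. Sequences are from RefSeq (GRCm38.p6), which listed windows for 9 of the 10 genes, 11 windows in all, with Sod3 not listed. Each run is the 250 bases before the annotated start, 5′ to 3′ on the gene's strand. Capitals mark the core of an antioxidant response element, the motif bound by Nrf2 with small Maf proteins, searched as TGACNNNGC on both strands (read as GCNNNGTCA where it lies on the opposite strand). Sod1 lies on the plus strand (chr16:90220512-90220761), Sod2 on the plus strand (chr17:13007589-13007838), Cat on the minus strand (chr2:103485154-103485403), Gclm on the plus strand (chr3:122245307-122245556) and Prdx1 on the plus strand (chr4:116685349-116685598).
Sod1: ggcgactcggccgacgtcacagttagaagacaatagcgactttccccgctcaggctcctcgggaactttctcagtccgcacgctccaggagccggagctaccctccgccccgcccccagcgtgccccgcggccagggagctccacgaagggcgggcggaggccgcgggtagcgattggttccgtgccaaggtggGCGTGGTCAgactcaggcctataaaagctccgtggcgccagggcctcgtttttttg
Sod2: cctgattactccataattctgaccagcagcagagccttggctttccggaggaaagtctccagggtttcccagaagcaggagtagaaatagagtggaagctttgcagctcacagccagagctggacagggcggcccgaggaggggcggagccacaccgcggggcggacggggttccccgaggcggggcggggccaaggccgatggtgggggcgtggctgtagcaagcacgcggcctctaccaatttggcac
Cat: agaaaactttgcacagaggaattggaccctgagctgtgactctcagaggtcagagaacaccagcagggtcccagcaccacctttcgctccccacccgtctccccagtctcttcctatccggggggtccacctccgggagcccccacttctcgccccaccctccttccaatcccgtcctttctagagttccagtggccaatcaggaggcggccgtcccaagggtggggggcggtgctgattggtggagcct
Gclm: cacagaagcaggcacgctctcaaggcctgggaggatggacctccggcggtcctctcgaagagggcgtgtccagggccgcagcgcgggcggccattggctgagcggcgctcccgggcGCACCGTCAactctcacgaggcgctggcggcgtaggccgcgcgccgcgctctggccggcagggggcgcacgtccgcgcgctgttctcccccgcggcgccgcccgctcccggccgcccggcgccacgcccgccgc
Prdx1: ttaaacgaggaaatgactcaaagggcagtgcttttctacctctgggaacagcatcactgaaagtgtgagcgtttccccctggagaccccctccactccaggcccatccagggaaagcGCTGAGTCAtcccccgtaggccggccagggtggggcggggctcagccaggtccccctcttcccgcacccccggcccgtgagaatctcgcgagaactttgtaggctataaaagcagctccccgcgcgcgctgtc

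The core motif was found in 4 of the 11 windows of these enzymes, and in 10.2% of all 32841 mouse promoter windows of the same length. It lay 56 bases before the start of Sod1, 134 before Gclm, 133 before Prdx1 and 92 before the second of the 3 Txnrd1 starts, each time on the opposite strand. The Cat and Sod2 windows held none. An AP-1 site (TGACTCA on either strand) was found in Prdx1 at 237 and 131 bases before the start, the second of these overlapping the response element core, and in 4.46% of all windows. A GC box (GGGCGG on either strand) was present in 8 of the 11 windows, against 32.7% of all windows, with 4 matches in Sod1 and 4 in Sod2. These are matches of letters in a window and say nothing of binding.

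**Figure D1:**
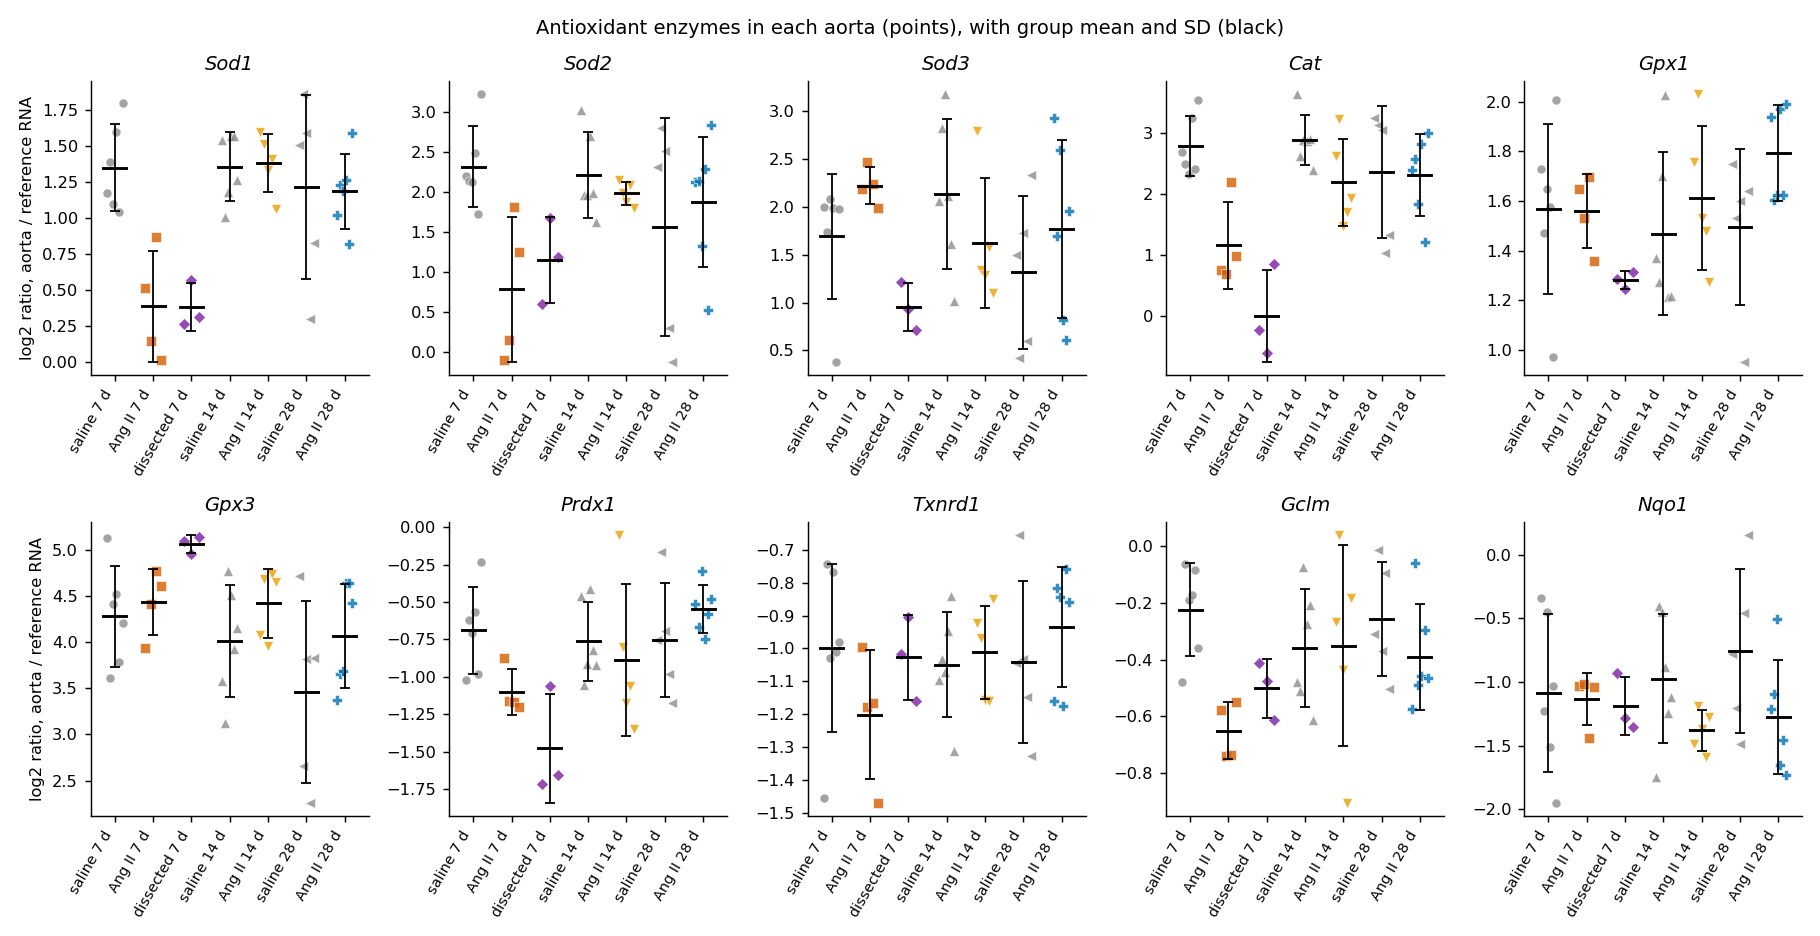
Log2 ratio of aorta to reference RNA for each of the 10 antioxidant enzymes in each of the 35 aortas, by group, with the group mean and SD in black (n = 6, 4, 3, 6, 5, 5 and 6 from left to right). Sod1 and Cat are low in all 4 Ang II and all 3 dissected aortas of day 7, while Gpx1, Nqo1 and Txnrd1 overlap between Ang II and saline at every time.

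At 7 days of Ang II, 4 of the 10 enzymes fell and 0 rose: the cytosolic and mitochondrial superoxide dismutases, catalase and the glutathione synthesis subunit Gclm. The background was 12.6% of all genes tested called lower and 14.5% called higher in the same comparison. The median log2 change over the 10 enzymes was -0.31, beside -0.00 over all genes, and 8 of 10 values were below 0. Genes were called at an adjusted p below 0.05 in limma's moderated test, Benjamini-Hochberg adjusted over all 18671 genes.

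Among the superoxide dismutases, Sod1 stood at 0.52, 0.15, 0.87 and 0.02 in the 4 Ang II aortas of day 7, against a lowest, median and highest of 1.04, 1.28 and 1.80 in the 6 saline aortas. Every Ang II value lay below every saline value. The mean log2 ratio was 0.39 ± 0.39 (SD, n = 4) against 1.35 ± 0.30 (SD, n = 6), a fall of 0.96 on the log2 scale (SE 0.219, 95% interval -1.41 to -0.51, adjusted p = 0.00189), or 1.95-fold. The second Sod1 probe (chr16:90112795-90112854 of mm8, beside a different transcript accession) did not move with it: its log2 change was 0.05 (adjusted p = 0.867 over all 27825 probes tested). The probes therefore disagree. With the mean over the probes Sod1 fell by 0.46 on the log2 scale and was called, but that mean contains the main probe and the second probe adds no support.

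Sod2, the manganese enzyme of mitochondria, was at -0.09, 0.16, 1.82 and 1.26 in the Ang II aortas and between 1.72 and 3.22 in saline, with a median of 2.17. The first pair of aortas was far lower than the other pair, and replicate 3 overlapped the saline range. The mean fell from 2.32 ± 0.51 (SD, n = 6) to 0.78 ± 0.90 (SD, n = 4), 2.89-fold (log2 change -1.53, SE 0.476, adjusted p = 0.0174). Sod3, the secreted enzyme, was not called: it was at 2.18, 2.46, 2.24 and 1.99 against a saline median of 1.98, a log2 change of 0.53 (95% interval -0.37 to 1.43, adjusted p = 0.398).

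Catalase showed the greatest fold of the 10 enzymes at this time. Cat was at 0.76, 0.69, 2.20 and 0.99 in the Ang II aortas, and at 2.33, 2.59 and 3.53 (lowest, median, highest) in saline aortas. The groups did not overlap. The mean of 1.16 ± 0.71 (SD, n = 4) against 2.78 ± 0.49 (SD, n = 6) was 3.08-fold lower (log2 change -1.62, SE 0.433, 95% interval -2.51 to -0.74, adjusted p = 0.0064). Neither glutathione peroxidase passed the test. Gpx1 was at 1.56 ± 0.15 (SD, n = 4) with Ang II and 1.57 ± 0.34 (SD, n = 6) with saline (log2 change -0.01, 95% interval -0.37 to 0.35, adjusted p = 0.983). Gpx3 differed by 0.15 (95% interval -0.60 to 0.90, adjusted p = 0.804).

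Gclm was at -0.58, -0.74, -0.74 and -0.55 with Ang II, and its saline values ran from -0.48 to -0.06 with a median of -0.18. The groups did not overlap, and the difference was small: the mean fell from -0.22 ± 0.16 (SD, n = 6) to -0.65 ± 0.10 (SD, n = 4), 1.35-fold (log2 change -0.43, SE 0.139, adjusted p = 0.0227). Prdx1 was at -0.87, -1.16, -1.16 and -1.20 against a saline range of -1.02 to -0.23, and its log2 change of -0.41 (95% interval -0.82 to 0.00, adjusted p = 0.127) was not called. It was called with the scanner's own log ratio (-0.52, adjusted p = 0.0104), the series table (-0.52, 0.0104) and array weights (-0.46, 0.0191). Not called either were Txnrd1 (-0.20, adjusted p = 0.258) and Nqo1 (-0.05, 95% interval -0.65 to 0.56, adjusted p = 0.933). Sod1, Cat and Gclm thus had groups that did not overlap, and how many of all genes did so was not counted.

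The 7-day calls rested on few aortas. With Ang II replicate 1 left out the Sod2 log2 change was -1.24 (adjusted p = 0.0902), and with replicate 2 left out it was -1.32 (0.0764). Gclm was lost without replicate 2 (0.0716) or 3 (0.0578), while Sod1 and Cat were called in each of the 10 fits that left out 1 aorta. Without Ang II replicates 1 and 2 together, a choice made after seeing the data, 0 of the 10 enzymes were called, with log2 changes of -0.90 for Sod1, -1.18 for Cat, -0.78 for Sod2 and -0.42 for Gclm. Within scan day 1 the changes were -0.99 for Sod1, -1.72 for Sod2, -1.69 for Cat and -0.38 for Gclm, the first 3 of them called. Scan day 2 held 1 Ang II aorta of day 7, and there the values were -0.61, -0.66, -0.86 and -0.53, none called. With the slide as a block, Sod1 (-0.98, adjusted p = 0.00348), Sod2 (-1.33, 0.0404) and Cat (-1.51, 0.0318) were called and Gclm (-0.38, 0.13) was not.

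**Figure D2:**
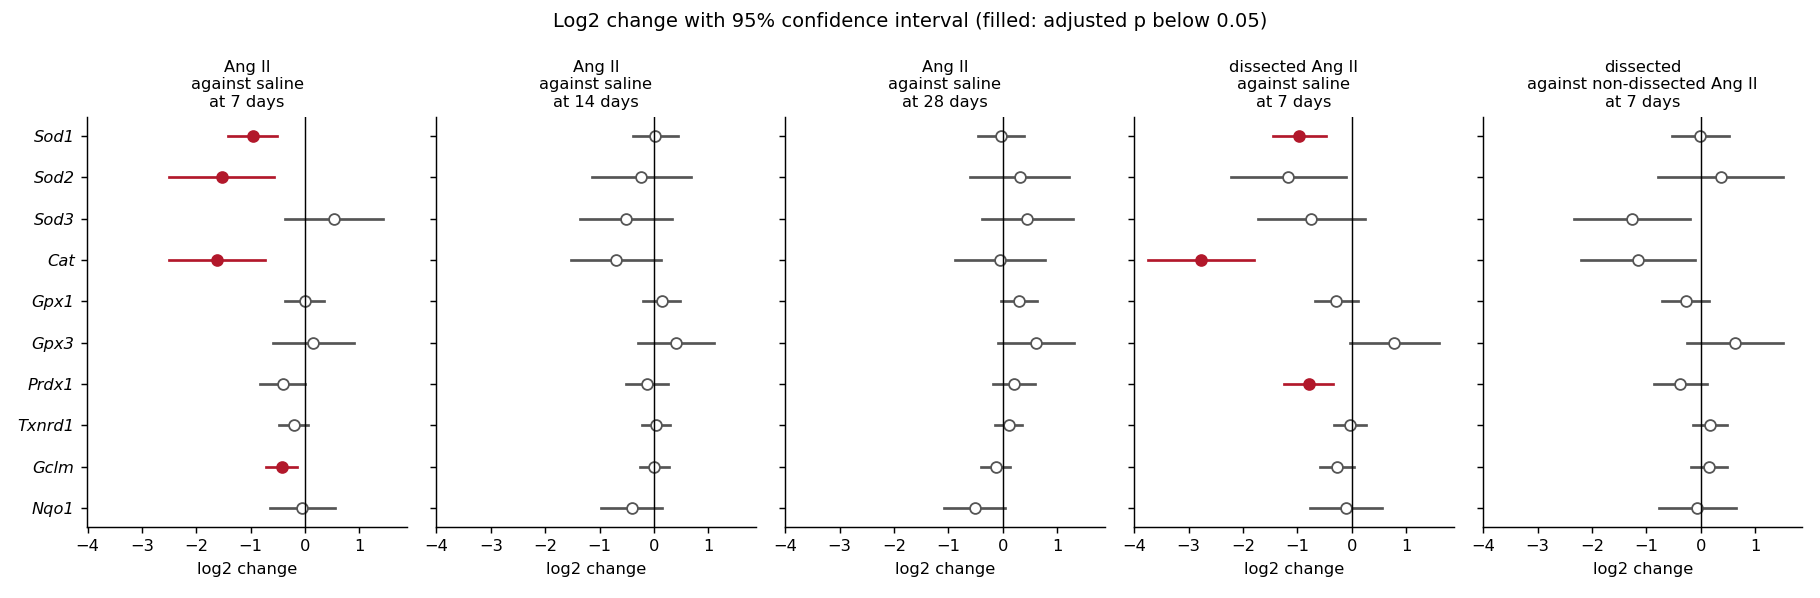
Log2 change of each antioxidant enzyme in 5 comparisons, with its 95% confidence interval, filled where the adjusted p was below 0.05. Sod1 and Cat are filled and left of 0 in both day 7 comparisons with saline, and no enzyme is filled at 14 or 28 days.

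At 14 and 28 days of Ang II, 0 of the 10 enzymes were called in limma's test, against a background of 1.12% of genes called higher and 1.28% lower at 14 days and of 0.836% higher and 0.0643% lower at 28 days. The smallest unadjusted p in that test was 0.0987 for Cat at 14 days, which ranked 5064 among the 18671 genes. At 28 days it was 0.069 for Nqo1, which ranked 3410. Cat came nearest to its 7-day value at 14 days, with 2.62, 3.22, 1.48, 1.71 and 1.93 in the Ang II aortas against a saline range of 2.40 to 3.63, a log2 change of -0.69 (95% interval -1.52 to 0.14, adjusted p = 0.364). The groups overlapped. The other changes at 14 days were -0.51 for Sod3, -0.41 for Nqo1, -0.23 for Sod2, -0.12 for Prdx1, 0.01 for Gclm, 0.03 for Sod1, 0.04 for Txnrd1, 0.15 for Gpx1 and 0.41 for Gpx3. At 28 days Cat differed by -0.05 (95% interval -0.88 to 0.78), and Sod1 by -0.03 (95% interval -0.45 to 0.39).

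Other enzymes had their own direction at the later times without passing the test. Gpx3, the plasma peroxidase, was at 4.07 ± 0.56 (SD, n = 6) in the Ang II aortas of day 28 and 3.46 ± 0.99 (SD, n = 5) in saline (log2 change 0.61, 95% interval -0.09 to 1.32, adjusted p = 0.413). Nqo1 was at -1.28 ± 0.45 (SD, n = 6) against -0.76 ± 0.64 (SD, n = 5), a change of -0.52 (95% interval -1.08 to 0.04, adjusted p = 0.378). Within scan day 2 alone the Nqo1 change at 28 days was -1.25 and was called (adjusted p = 0.0159), and within scan day 1 it was 0.41 (adjusted p = 0.732). Cat was at -0.82 within scan day 1 and 0.48 within scan day 2, and Sod1 at -0.58 and 0.35, none of them called. Gpx1 differed by 0.30 (95% interval -0.04 to 0.64, adjusted p = 0.407). The other changes at 28 days were 0.45 for Sod3, 0.31 for Sod2, 0.21 for Prdx1, 0.11 for Txnrd1 and -0.13 for Gclm.

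Over the mean of the 3 times, 2 enzymes fell and 0 rose, beside 11.6% of all genes lower and 15.6% higher. Cat fell by 0.79 on the log2 scale (SE 0.240, adjusted p = 0.0141), and Sod1 by 0.32 (SE 0.121, adjusted p = 0.047). The other 8 changes were -0.48 for Sod2, -0.32 for Nqo1, -0.18 for Gclm, -0.11 for Prdx1, -0.02 for Txnrd1, 0.14 for Gpx1, 0.16 for Sod3 and 0.39 for Gpx3. Sod1 was close to the threshold, and lost its call in 20 of the 32 fits that left out 1 aorta. Its second probe did not fall (0.05, adjusted p = 0.740 over all probes tested). With the mean over the probes Sod1 was at -0.14 and was not called (adjusted p = 0.248). Within scan day 1 Cat was at -1.01 and Sod1 at -0.47, both called, and within scan day 2 they were at -0.39 and -0.12, neither called. No enzyme was called for an effect of Ang II that differed among the 3 times, where 1.48% of all genes were: the smallest adjusted p was 0.0989 for Sod1, then 0.185 for Sod2 and 0.226 for Cat. The Sod1 effect was 0.99 higher at 14 than at 7 days (SE 0.301, adjusted p = 0.081) and 0.93 higher at 28 than at 7 days (adjusted p = 0.0808).

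In saline aortas 0 enzymes changed among 7, 14 and 28 days, beside 0.503% of all genes, and the smallest adjusted p was 0.455 for Gpx3. The spread among the saline aortas was wide for some. Saline aortas 1 to 5 of day 28 had Cat at 3.24, 3.13, 3.04, 1.03 and 1.33, Sod1 at 1.51, 1.86, 1.59, 0.30 and 0.83, and Sod2 at 2.31, 2.80, 2.52, 0.31 and -0.12. Replicates 4 and 5 were thus as low as Ang II aortas of day 7 for all 3 genes, without Ang II. Both arrays were unusual in other ways. Their median r with the other arrays was 0.752 and 0.784, beside a median of 0.834 over all arrays. Replicate 4 had the highest factor in the scale normalisation given below (5.47), and replicate 5 the lowest share of spots above background (45.0%). Whether the arrays or the aortas made these values low was not tested.

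In dissected aortas of day 7, 3 of the 10 enzymes were lower than in saline and 0 were higher, beside 17.6% of all genes lower and 18.9% higher. The median over the 10 enzymes was -0.51, against -0.04 over all genes. Cat was at -0.22, -0.60 and 0.85 in the 3 dissected aortas, all below the lowest saline value of 2.33. Its mean of 0.01 ± 0.75 (SD, n = 3) was 6.83-fold lower than in saline (log2 change -2.77, SE 0.474, 95% interval -3.74 to -1.80, adjusted p = 3.22e-05). This was the largest fold of any of the 10 enzymes in the 5 comparisons between 2 groups. Sod1 was at 0.27, 0.57 and 0.32, a fall of 0.97 on the log2 scale (SE 0.240, adjusted p = 0.00202). Both genes were again apart from every saline aorta of day 7, and how many of all genes were so was not counted. The second Sod1 probe changed less (-0.24, adjusted p = 0.336 over all probes tested) and was not called. With the mean over the probes, which contains the main probe, Sod1 was at -0.60 and called.

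Prdx1, the cytosolic peroxiredoxin, was at -1.71, -1.06 and -1.66 and also fell below all 6 saline values (log2 change -0.79, SE 0.221, adjusted p = 0.0057). Without dissected replicate 1 the Prdx1 call was lost (-0.67, adjusted p = 0.0521). Sod2 was at 0.60, 1.67 and 1.18, below the saline range of 1.72 to 3.22, and its change of -1.16 (95% interval -2.23 to -0.10, adjusted p = 0.0802) was not called. With the replicate number as a block over all 7 groups, which is not a pairing of dissected and saline aortas alone, Sod2 was called (-1.28, adjusted p = 0.0479). Gpx3 was at 5.10, 4.95 and 5.13, the highest group mean of the gene, and its change of 0.78 (95% interval -0.04 to 1.61, adjusted p = 0.129) was not called. The others were at -0.74 for Sod3, -0.28 for Gpx1, -0.28 for Gclm, -0.10 for Nqo1 and -0.03 for Txnrd1. All 3 dissected aortas were scanned on day 2, and within that day the changes were -3.05 for Cat (adjusted p = 0.00122), -1.10 for Sod1 (0.00974), -0.88 for Prdx1 (0.0331) and -1.32 for Sod2 (0.119). With the slide as a block Cat was at -2.33, Sod1 at -0.75, Prdx1 at -0.78 and Sod2 at -0.24, the first 3 of them called.

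Dissected and non-dissected Ang II aortas of day 7 had 0 of the 10 enzymes called between them by limma's test, where 4.98% of all genes were called lower and 3.06% higher in dissected aortas. The smallest unadjusted p-values in that test were those of Sod3 (0.021) and Cat (0.0322), which ranked 2882 and 3402 among the 18671 genes. Sod3 was at 1.21, 0.93 and 0.71 in dissected aortas and from 1.99 to 2.46 in the 4 others, without overlap (log2 change -1.27, SE 0.521, 95% interval -2.33 to -0.20, adjusted p = 0.136). A fit on these 2 groups alone called Sod3 (adjusted p = 0.00504). Over 19 alternatives its change ran from -1.40 to -0.80 and was called in 2, this fit and array weights. All 3 dissected aortas were scanned on day 2 and 3 of the 4 others on day 1, so dissection and scan day are largely confounded here. With the scan day as a block, 306 of all genes were called higher and 556 lower, beside 571 and 929 without it. Cat differed by -1.15 (95% interval -2.19 to -0.10, adjusted p = 0.177), with the highest dissected value of 0.85 inside the range of the others. The others were at 0.63 for Gpx3, -0.28 for Gpx1, -0.38 for Prdx1, 0.37 for Sod2, 0.18 for Txnrd1, 0.15 for Gclm and -0.06 for Nqo1. For Gpx1 and Gpx3 the groups did not overlap, though neither gene was called. How many of all genes had groups without overlap in this comparison was not counted. Sod1 differed by less than its error (log2 change -0.00, 95% interval -0.53 to 0.53). Both comparisons of dissected aortas and the 7-day comparison share aortas, so their values are set side by side and not counted as separate support.

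By group means, Cat was lowest in dissected aortas (0.01), then in Ang II aortas of day 7 (1.16), day 14 (2.19) and day 28 (2.31), then in saline aortas of day 28 (2.35), day 7 (2.78) and day 14 (2.88). Each group's range overlapped that of its neighbour in this order. Sod1 was lowest in dissected aortas (0.39) and in Ang II aortas of day 7 (0.39), which overlapped, and the other 5 group means lay between 1.19 and 1.38. Sod2 had its lowest mean in Ang II aortas of day 7 (0.78) and its highest in saline aortas of day 7 (2.32). Group means of Txnrd1 spanned 0.27 and those of Gclm 0.43, the narrowest of the 10.

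The enzymes differed in how much aortas of 1 group scattered. The residual SD was 0.768 for Sod2, 0.710 for Sod3, 0.697 for Cat and 0.591 for Gpx3, all far above the median of 0.289 over all genes. It was 0.347 for Sod1, and the lowest were Gclm at 0.211 and Txnrd1 at 0.198.

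Across the 35 arrays, Sod1, Sod2 and Cat went up and down together. Pearson's r was 0.850 between Sod1 and Cat, 0.811 between Sod1 and Sod2, and 0.781 between Sod2 and Cat. With the group means removed it was 0.755, 0.773 and 0.802, so aortas of the same group also varied together. Prdx1 followed Sod1 (0.704; 0.631 within groups). Nqo1 ran the other way within groups, at -0.630 with Sod1 and -0.624 with Sod2. Sod3 showed little of this, at 0.079 with Sod1 and 0.082 with Sod2, and Txnrd1 went with Gclm (0.571). These are descriptions, with no test, of values that share arrays, reference RNA and tissue make-up.

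**Figure D3:**
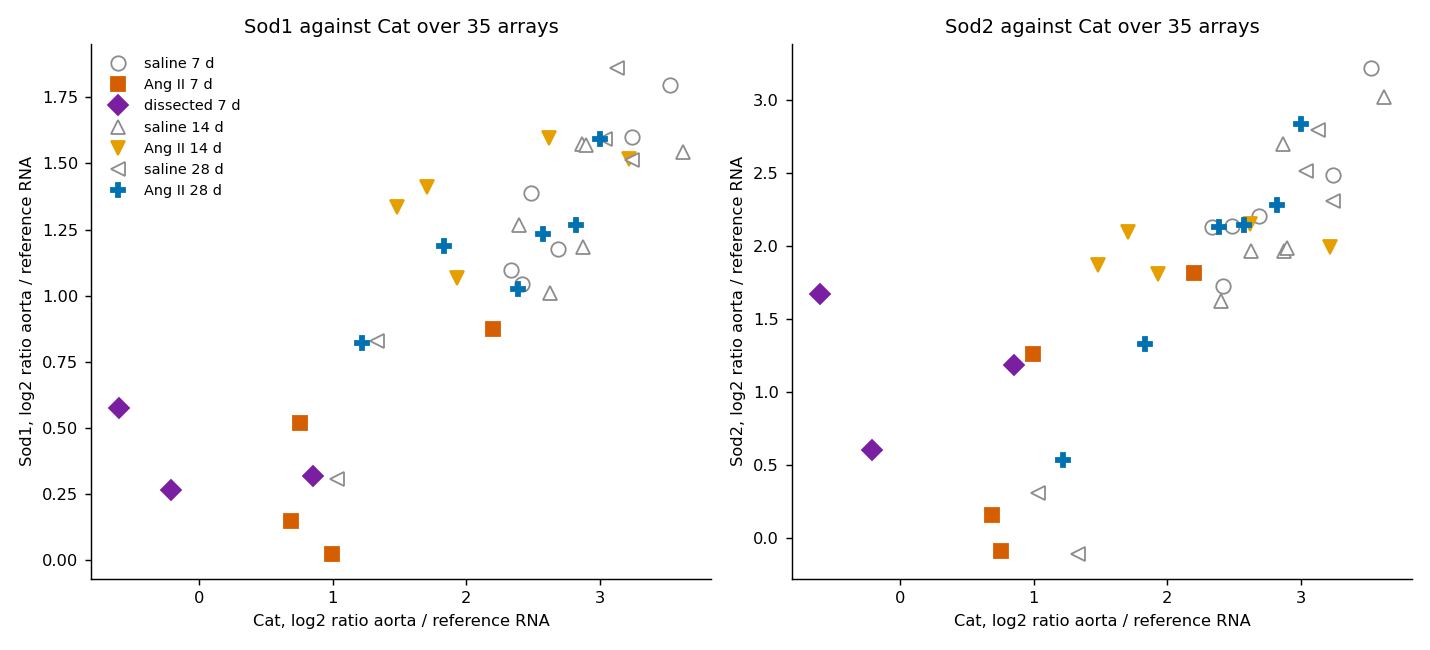
Log2 ratios of Sod1 (left) and Sod2 (right) against Cat in each of 35 arrays, with 1 symbol per group. Points run from low to high together, with r of 0.850 and 0.781. Saline replicates 4 and 5 of day 28 lie among the Ang II aortas of day 7, and 2 of the 3 dissected aortas have the lowest Cat of all arrays.

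The genes outside the 10 that tracked these 3 most closely over the 35 arrays were named by the size of r. For Sod1 they were Hsd17b10 (0.951), a mitochondrial dehydrogenase, Sirt3 (0.935), a mitochondrial deacetylase, and Tmem135 (0.918). For Cat they were Pnpla8 (0.955), a phospholipase, Scp2 (0.954), a peroxisomal sterol carrier and thiolase, and Coq9 (0.954), needed for ubiquinone synthesis. For Sod2 they were Akap1 (0.968), a mitochondrial anchoring protein, Cd1d1 (0.963), a lipid antigen-presenting molecule, and Acadl (0.962), long-chain acyl-CoA dehydrogenase.

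Cell-type scores moved with several enzymes. Only the neighbouring tissue scores (adipocyte, chromaffin and sympathetic, and kidney tubule) entered a fit as covariates. The part of the macrophage score was not tested. The macrophage score, the mean centred log2 ratio of 8 markers, ran from -1.83 to -0.74 in saline aortas of day 7, from 0.52 to 1.40 in Ang II aortas and from 0.90 to 1.86 in dissected aortas. Over the 35 arrays it had an r of -0.694 with Cat, -0.609 with Sod1 and -0.547 with Sod2, which includes the difference between saline and Ang II aortas. Over the 17 saline arrays these were -0.373, -0.306 and -0.379, and over the 18 Ang II arrays -0.693, -0.735 and -0.773. The adipocyte score had an r over 35 arrays of 0.255 with Cat, 0.336 with Sod1 and 0.452 with Sod2. The Ang II aortas of day 7 with the lowest Sod2 and Cat, replicates 1 and 2, also had the lowest adipocyte scores of that group (-0.98 and -0.74, against 0.42 and -0.05). Dissected aortas, with the lowest mean Cat, were not low in this score (0.01, 0.32 and 0.25). In the Ang II group of day 7 as a whole, brown adipocyte markers Cox7a1 and Elovl3 were lower than in saline, with log2 changes of -2.17 and -1.75. Saline replicate 4 of day 28, among the lowest saline aortas for Sod1, Sod2 and Cat, had the lowest adipocyte score of all at -1.48, and replicate 5, also low for the 3 genes, was at -0.42. With the scores of neighbouring tissues as covariates Sod1 (-0.88, adjusted p = 0.0244) and Cat (-1.48, 0.0468) were still called at 7 days, and Sod2 (-1.33, 0.11) and Gclm (-0.37, 0.16) were not.

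Gpx3 had an r with the adipocyte score of 0.807 over 35 arrays and 0.952 over the 17 saline arrays, the highest of the 10 in both sets. Over the 18 Ang II arrays its r was 0.601, beside 0.622 for Sod2 and -0.651 for Nqo1, and over 35 arrays that of Sod2 was 0.452. In the 17 saline aortas it ran from 2.26 to 5.13, with a median of 3.92. With the scores of neighbouring tissues as covariates Gpx3 was called higher in Ang II aortas of day 7 (0.77, adjusted p = 0.0178) and in dissected aortas (0.84, adjusted p = 0.000924). With the adipocyte score alone as a covariate, a fit added after seeing the data, the values were 0.74 (adjusted p = 0.00354) and 0.84 (adjusted p = 0.00061). With no covariate and array weights, Gpx3 was called in dissected aortas (0.85, adjusted p = 0.0471).

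**Figure D4:**
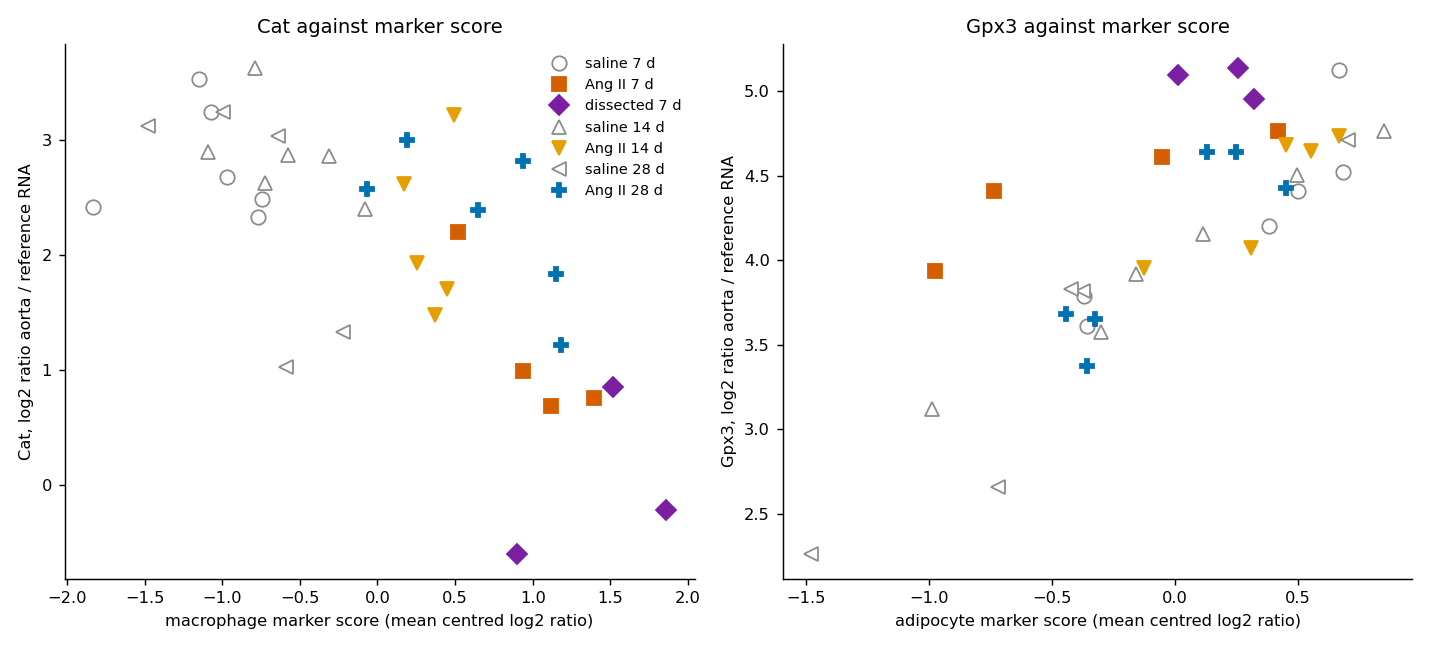
Left, Cat against the macrophage marker score, and right, Gpx3 against the adipocyte marker score (each the mean centred log2 ratio of its markers), in each of 35 arrays, with 1 symbol per group. Cat runs lower at higher macrophage scores (r of -0.694), and Gpx3 rises with the adipocyte score in saline aortas, with Ang II and dissected aortas of day 7 above them at a like score.

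Lists of genes of the same defence systems, which include members of the 10, did not all go the way of the 4 enzymes called lower at 7 days. The background at 7 days was 14.5% of all genes called higher and 12.6% lower, so single calls in these short lists are near that share. Among catalase and 6 glutathione peroxidases, 2 rose and 2 fell at 7 days. Gpx7, a peroxidase of the endoplasmic reticulum, rose by 2.18 (SE 0.429, adjusted p = 0.000456) and Gpx2, the gastrointestinal isoform, by 0.45, while Gpx4, the phospholipid hydroperoxide peroxidase, fell by 1.20 (SE 0.320, adjusted p = 0.00653). Among 6 peroxiredoxins, 1 rose and 2 fell: Prdx4, the form of the secretory pathway, was 1.07 higher and the mitochondrial Prdx3 was 1.38 lower (adjusted p = 0.00345), with Prdx6 0.58 lower. Of 5 superoxide dismutases and copper chaperones, 2 fell and 0 rose, both of them members.

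The thioredoxin and glutathione-conjugating genes were called in 1 direction, where 14.5% of all genes were called higher and 12.6% lower at 7 days. Of 13 thioredoxin and glutaredoxin genes, 5 fell and 0 rose at 7 days, with Txnip, the thioredoxin inhibitor, at -1.40 (adjusted p = 0.000471), Txnrd3 at -0.57, Glrx at -0.49 and mitochondrial Txn2 at -0.70. Of 14 glutathione transferases, 6 fell and 0 rose, beside 12.6% of all genes lower, among them Mgst3 (-1.11), Gsta4 (-1.07), Gsto1 (-1.02) and Gstm1 (-1.60). In dissected aortas 8 of the 14 fell and 0 rose, beside 17.6% of all genes lower, with Gsta3 at -2.66 and Gsto1 at -1.20. The list medians were -0.74 and -0.80, beside -0.00 and -0.04 over all genes. Of 10 glutathione synthesis and recycling genes, Ggt5, a surface peptidase that cleaves glutathione conjugates, rose at 7 days (1.32), at 28 days (1.30) and in dissected aortas (2.81), and Gclm alone fell at 7 days. Of 7 genes for repair of oxidised protein and lipid, Msrb2 (-1.22) and Msra (-1.10), both methionine sulfoxide reductases, fell at 7 days and 0 rose.

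Of 21 Nrf2 target genes, 3 rose and 6 fell at 7 days, beside 14.5% of all genes higher and 12.6% lower. In dissected aortas 4 rose and 3 fell, beside 18.9% and 17.6%, so those shares were near the background. Ugdh, which makes UDP-glucuronic acid, rose at 7 days (1.20, adjusted p = 0.00102). In dissected aortas Slc7a11 (0.68), the cystine transporter, and Osgin1 (1.08) rose, and Me1 fell (-1.75). Hmox1, haem oxygenase, rose by 4.29 in dissected aortas (SE 0.599, adjusted p = 2.05e-06) and by 1.82 at 7 days (adjusted p = 0.0142), the second value being named after it was seen. Me1 (-1.58), Tkt (-1.68) and Taldo1 (-1.22), which serve NADPH supply, fell at 7 days. Among 9 genes for Nrf2 and its regulators, Nfe2l1 (-0.83) and Cul3 (-0.52) fell at 7 days, and in dissected aortas 3 rose and 4 fell. There Bach1, a repressor of Nrf2 targets, rose by 1.53, Mafg by 0.97 and Keap1 by 0.55, while Cul3 fell by 1.52, and the Nrf2 gene itself, Nfe2l2, named after its value was seen, fell by 0.77 (adjusted p = 0.0204).

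Selenoproteins went both ways, with 4 of 14 higher and 5 lower at 7 days, beside 14.5% of all genes higher and 12.6% lower. Selenon (1.47), Selenoh (1.18) and Selenos (0.96) rose, while Pstk, a kinase of selenocysteine synthesis, fell (-0.74). Of 3 metallothioneins, Mt3 rose (1.07). Of the 8 superoxide-producing oxidase genes tested (Nox1 was not), 5 rose and 0 fell at 7 days: Cybb, the catalytic subunit of the phagocyte oxidase, by 1.97 (adjusted p = 2.34e-05), and among its partners Ncf1 by 1.38, Ncf4 by 1.53 and, named after its value was seen, Cyba by 1.24. The same count rose in dissected aortas, beside 18.9% of all genes higher, with Cybb at 1.93. Macrophage markers rose in the same aortas, as given above, and their part in these values was not tested.

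At the later times few genes of these lists were called. At 14 days they were Keap1 (0.46), Osgin1 (0.83) and Selenot (-0.95). At 28 days they included Cybb (1.66) and Ggt5 (1.30). Between dissected and non-dissected aortas 3.06% of all genes were called higher and 4.98% lower. List genes called higher included Hmox1 (2.47), Gpx2 (1.05), Bach1 (1.04), Osgin1 (1.25) and Slc7a11 (0.69). Those called lower included Gpx8 (-1.31), Ugdh (-1.25) and Cul3 (-0.99).

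**Figure D5:**
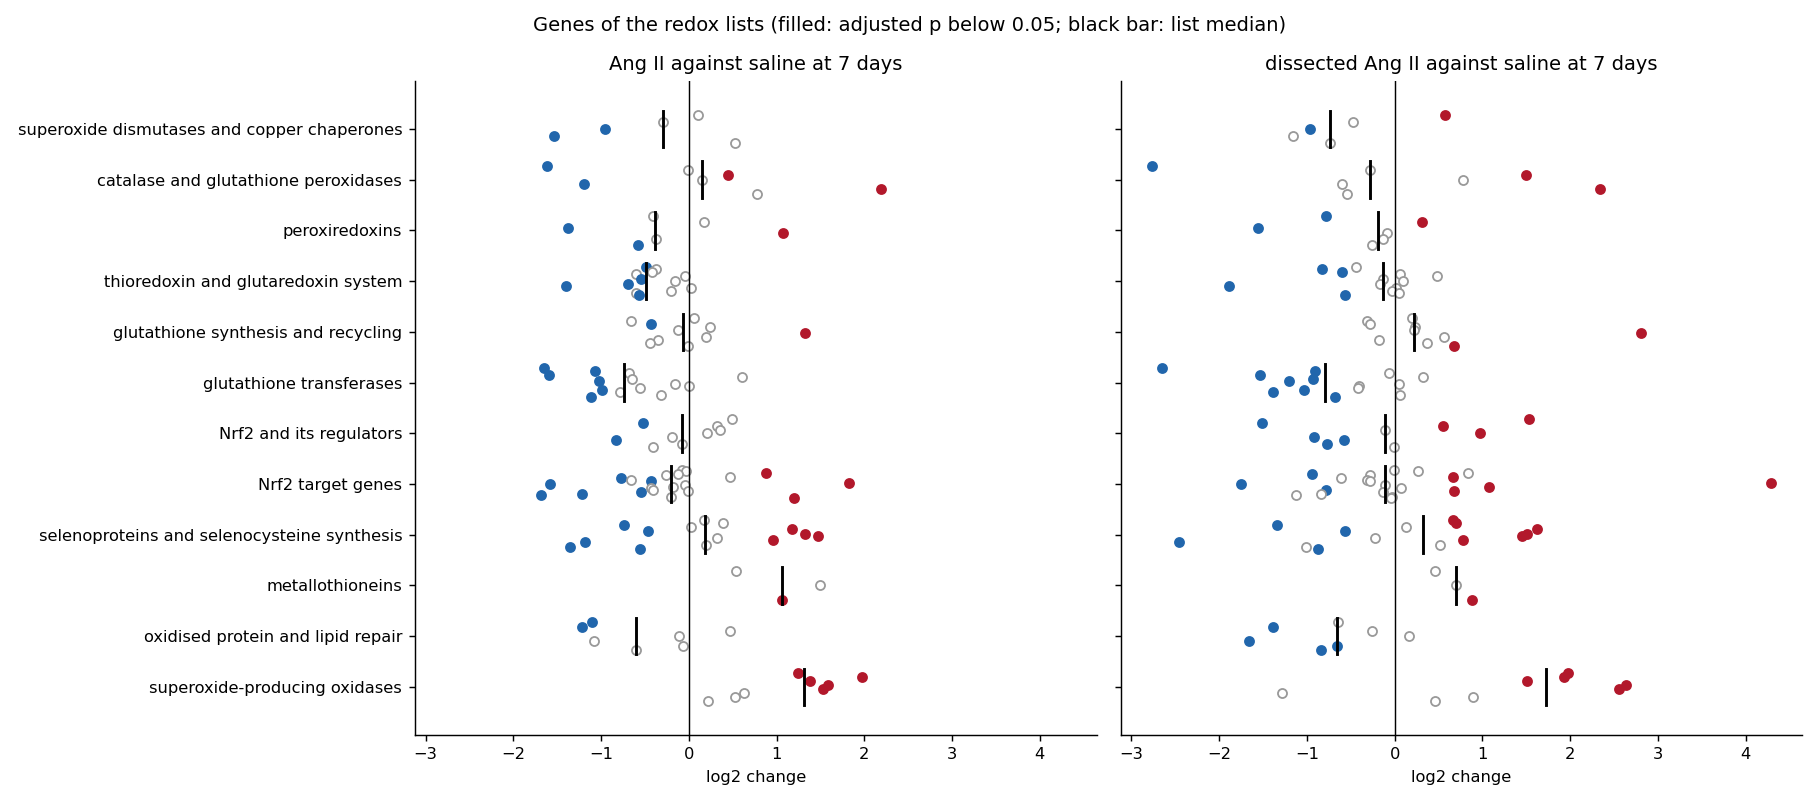
Log2 change of each gene of 12 redox lists at 7 days of Ang II (left) and in dissected aortas (right), both against saline of day 7, filled where the adjusted p was below 0.05, with the list median as a bar. Glutathione transferases lie mostly left of 0, with 6 and 8 of 14 filled, and 5 of 8 superoxide-producing oxidases are filled on the right in both panels. Of all genes, 14.5% were called higher and 12.6% lower in the left comparison, and 18.9% and 17.6% in the right.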

How the data were processed

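The authors hybridised 35 two-colour Agilent arrays, 1 suprarenal aorta each (Cy5), against a universal mouse reference RNA (Cy3). Intensity values came from the deposited scanner output (made, per the submitters' processing notes, by version 9.5.3.1 of Agilent's Feature Extraction), with 45018 spots an array. The deposited series table held log2 ratios, checked against the scanner's log10 ratios of the deposited files (slope 3.32 to 3.34, r from 0.986 to 1.000), whose column medians ran from -0.0675 to 0.109; the scale was found in this way and its centring is not stated.

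Mean signals were background-corrected (normexp, offset 50) and normalised by loess within each array in limma 3.58.1 (R 4.3.3). Control spots and non-uniform spots had weight 0, and outlier spots were left out. Probes of 1 ID were averaged. Names came from the RefSeq table (GRCm38.p6) for 24375 probes by accession, 6301 by current and 2426 by older symbol, and 8072 kept the name in the file. The brightest probe stood for a gene. Genes well above background in the aorta channel on at least 3 arrays were tested, 18671 in all. The fit had 7 group means and 28 residual degrees of freedom. limma's moderated tests were Benjamini-Hochberg adjusted over all genes at 0.05. In 135 genes with a missing value that array was dropped from the fit of the gene. The number of aortas limits the precision, and a p-value reflects only how much these aortas varied.

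The 7-day comparison was tried on simulated data with independent noise and no slide, scan day or tissue differences. It called 70% of true log2 changes of 1 and 96% of those of 2, and 5.68% of its calls were false. Dissected and saline aortas of day 7 with the same number deviated together (r of 0.498, 0.499 and 0.132), which is a pairing read from the data and not from the labels. The block on the number spans all 7 groups and is given where it changes a call. Named genes were all 10 members in every comparison, from among the 4 called genes of a list with the smallest adjusted p (others are marked), and the 3 genes closest to each of Sod1, Cat and Sod2 by r. The members and lists were chosen with earlier results of these data known, and are not independent of them. Where promoters are shown, motifs were counted by letter match. Alternatives were other background corrections, scalings, filters, blocks, covariates and left-out aortas. The values of 1 oxidase gene are not reported here, though it is counted in its list.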

Additional observations from a re-analysis of the deposited data

Results flagged for a closer look

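In 5 of 60 groups tested, 1 aorta stood apart from the others of its group for 1 enzyme, where chance flags about 1 in 20 groups. Sod3 was at 0.380 in saline replicate 5 of day 7, and the nearest aorta of the group was at 1.74. Sod3 was at 2.80 in Ang II replicate 1 of day 14, and the nearest was at 1.58. Gpx1 was at 0.952 in saline replicate 4 of day 28, with the nearest at 1.53. Nqo1 was at -1.44 in Ang II replicate 3 of day 7, with the nearest at -1.04. Prdx1 was at -0.874 in Ang II replicate 1 of day 7, with the nearest at -1.16.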

How the results depend on the processing

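Over 20 alternatives to the 7-day fit the sign of Sod1, Sod2, Cat and Gclm stayed negative in each, and they were called in 16, 14, 17 and 14 of them. The number of enzymes called at 7 days was 4 as reported. It was 1 with median centring in place of loess (Cat), 1 with scale normalisation (Gclm), 0 within scan day 2 and 0 without Ang II replicates 1 and 2 of day 7, an alternative chosen after seeing the data. It was 5 with the scanner's log ratio, the series table or array weights (Prdx1 added). Leaving out 1 aorta gave 2 to 4, with 2 without Ang II replicate 2 (Sod1 and Cat). For the mean of the 3 times (2 reported) it was 4 with the scanner's log ratio, the series table or array weights, 1 with median centring, no filter on dim probes, the mean over probes, only the groups compared or the scan day as a block, and 0 with scale normalisation, within scan day 2 or without Ang II replicates 1 and 2, and from 1 to 3 with 1 aorta left out. For dissected aortas against saline (3 reported) it was 6 with median centring (Gpx1, Nqo1 and Gclm added), 5 with array weights and 0 with scale normalisation, and 2 to 3 with 1 aorta left out. Where 0 was reported, it was 3 with scale normalisation at 28 days (Gpx1, Gpx3 and Txnrd1) and over time in saline, 1 within scan day 2 at 28 days (Nqo1), 1 for dissected against non-dissected aortas on the groups compared alone (Sod3) and 2 with array weights (Sod3, Prdx1), and 2 with array weights for the difference among times (Sod1, Sod2).

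Only scale normalisation turned a direction with a call on either side. At 28 days it took Gpx1 to -1.82 and Gpx3 to -3.68, both called, from 0.30 and 0.61, neither of them called. It multiplied the log ratios of an array by factors from 0.544 to 5.47, with the highest in saline replicates 2 and 4 of day 28 (5.00 and 5.47). Median centring moved the median of all genes to -0.36 in dissected aortas against saline, -0.29 against non-dissected aortas and -0.15 at 14 days, so changes there are relative to it. It split all genes called into 872 higher and 5439 lower (3524 and 3294 as reported), 55 and 1800 (571 and 929), 35 and 86 at 14 days (210 and 239), and 965 and 1249 for the mean of times (2914 and 2173). Scale normalisation gave 692 and 187 at 7 days (2711 and 2358), 6 and 0 at 14 days, 2722 and 1392 at 28 days (156 and 12), 1303 and 777 for dissected against saline and 47 and 32 against non-dissected aortas.

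Over the alternatives, genes called ran from 206 to 8531 at 7 days (5069 reported), 1 to 1269 at 14 days (449), 0 to 4114 at 28 days (168), 1328 to 6808 for the mean (5087), 2080 to 9837 for dissected against saline (6818), 8 to 4943 against non-dissected (1500), 2 to 3459 for the difference among times (277) and 0 to 2545 over time in saline (94).

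With the replicate block, 4 enzymes were called at 7 days, 0 at 14 and 28 days, 2 for the mean and 4 in dissected aortas, where Sod2 was added; it changed no other call of the 10. Same-numbered Ang II and saline aortas did not deviate together at every number (r from -0.05 to 0.33 at 7 days, 0.04 to 0.60 at 14 and -0.40 to 0.16 at 28). As a random block the slide had a within-slide correlation of 0.039. The cause of the other changes was not tested. Sod3 rests on a reference channel near background on some arrays, and 3 or 4 aortas a group limit the day 7 comparisons.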
